A study of Homo sapiens with 12 samples.

Results

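The genes described here are 10 regulators and readouts of the NRF2 and BACH1 system, taken from the 60987 rows of the deposited gene table by gene symbol in all 12 samples; each of the 10 symbols matched a single row. They comprise the transcription factors NFE2L2 (which encodes NRF2) and NFE2L1 (NRF1), the inhibitors KEAP1 and BACH1, the small MAF partners MAFF, MAFG and MAFK, the autophagy receptor SQSTM1 (p62), and the target genes NQO1 and OSGIN1. RNA was sequenced from HCT116, an established human colorectal carcinoma line labelled as wild type. Cystine-deprived cells were washed and then fed DMEM containing 0 mM cystine, while control cells stayed in full DMEM, both with 10% serum and antibiotics. Cells were collected after 24 h or 48 h, giving 3 deprived and 3 control samples at each time. The question put by the design was which transcripts differ when cystine, the oxidised dimer of cysteine, is withheld. The wash and the change of medium are described for deprived cells only, so they cannot be told apart from the lack of cystine. Whether the 3 samples of a group were separate cultures is not stated, so the p-values speak only of the spread among these libraries, which may be technical.

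Libraries summed to 19146108 to 24179533 estimated counts, and 16994 genes, all 10 described here among them, had enough counts to be tested. Mitochondrial transcripts held 6.34% to 8.55% of counts. Of 14 colon epithelial markers, 3 stayed under 1 CPM (read counts scaled to a common library size) in every sample, of which CDX1 was at 0 throughout. Their summed level was 5520 to 5682 CPM in deprived and 4090 to 4524 CPM in control cells at 24 h, and 5274 to 5884 CPM in deprived and 4520 to 5001 CPM in control cells at 48 h. Most of this sum was KRT8, KRT18 and KRT19, which averaged 2460, 935 and 1239 CPM in deprived cells at 24 h. Of the 11 tested, 5 were higher and 3 lower in deprived cells at 24 h, and 6 and 4 at 48 h, by the test below. Of all tested genes, 28.8% were higher and 26.9% lower at 24 h, and 33.5% and 34.9% at 48 h. The leukocyte markers PTPRC, CD3D and CD3E were at 0, and 8 of 9 leukocyte, 7 of 8 fibroblast and 4 of 6 endothelial markers were under 1 CPM in every sample. The leukocyte markers summed to 11.4 to 12.4 CPM in deprived and 4.87 to 5.54 CPM in control cells at 24 h, and to 23.1 to 27.4 CPM in deprived and 11.1 to 11.2 CPM in control cells at 48 h, with CD68 the only marker above 1 CPM. The fibroblast markers, COL1A1 being the only one above 1 CPM, summed to 16.3 to 20.7 CPM in deprived and 32.3 to 34.4 CPM in control cells at 24 h, and to 20.4 to 22.6 CPM in deprived and 44.7 to 49.4 CPM in control cells at 48 h. The endothelial markers summed to 32.98 to 33.5 CPM in deprived and 44.98 to 52.5 CPM in control cells at 24 h, and to 20.4 to 22.6 CPM in deprived and 48.9 to 58.1 CPM in control cells at 48 h. Their part in the results below was not tested.

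NRF2 is a basic leucine zipper factor of the CNC family that pairs with a small MAF protein and binds antioxidant response elements in genes for glutathione synthesis, quinone detoxification and iron handling. KEAP1, a cysteine-rich adaptor of a CUL3 ubiquitin ligase, holds NRF2 for degradation until its cysteines are modified or until p62 binds KEAP1 in place of NRF2. BACH1 competes with NRF2 for the same elements as a haem-sensitive repressor, and NRF1, which is held at the endoplasmic reticulum, drives proteasome genes after it is processed. Much of this control acts on protein stability, which RNA levels do not show.

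Promoter sequence from RefSeq (GRCh38.p14, from 250 bases before to 50 bases after a start site) was found for 9 of the 10 genes, in 17 windows. MAFK had no entry. Both strands were searched for TGACNNNGC, the core of an antioxidant response element, and for TGANTCA, the AP-1 site at the core of a MAF recognition element; the patterns can overlap. KEAP1 and MAFF held TGACNNNGC, and BACH1 and OSGIN1 held TGANTCA, each pattern in 2 of the 17 windows. No window held TGATGNAA, a core shared by C/EBP-ATF elements. Sequence farther from the start sites was not searched, so a gene without a match here may still hold an element elsewhere. Among 35116 RefSeq windows of the same length, 13.35% held TGACNNNGC, 7.71% held TGANTCA and 3.62% held TGATGNAA. The 4 stretches are shown because they place the matched letters (in capitals) in the promoters of an NRF2 inhibitor, a repressor, a partner and a target whose RNA is described below. Each is written 5′ to 3′ on the strand of its gene, and a match is a description of letters, not a binding site.
KEAP1, minus strand, chr19:10502760-10502860: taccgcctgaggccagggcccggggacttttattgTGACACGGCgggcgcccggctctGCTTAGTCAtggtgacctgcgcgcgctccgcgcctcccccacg
BACH1, plus strand, chr21:29298827-29298927: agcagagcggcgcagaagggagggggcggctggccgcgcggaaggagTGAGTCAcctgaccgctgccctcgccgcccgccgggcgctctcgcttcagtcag
MAFF, plus strand, chr22:38201826-38201926: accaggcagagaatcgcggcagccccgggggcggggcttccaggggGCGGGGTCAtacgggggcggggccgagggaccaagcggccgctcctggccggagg
OSGIN1, plus strand, chr16:83953096-83953196: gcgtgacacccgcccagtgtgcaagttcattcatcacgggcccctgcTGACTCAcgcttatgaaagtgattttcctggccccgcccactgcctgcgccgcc
The KEAP1 and BACH1 stretches belong to window 2 of the start sites listed for those genes, and the MAFF and OSGIN1 stretches to window 1. In KEAP1 the matches began 54 and 31 bases before the start site, the match nearer the start being on the opposite strand. The MAFF match, also on the opposite strand, began 122 bases before its start. The AP-1 matches began 48 bases before the BACH1 start and 97 bases before the OSGIN1 start.

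After 24 h without cystine, 8 of the 10 genes were higher and none was lower by edgeR's quasi-likelihood test at an adjusted p under 0.05, where 55.6% of all tested genes were called and 28.8% were called higher. BACH1 and MAFG were the exceptions. After 48 h, 9 were higher and none lower, against 68.3% of all genes called and 33.5% called higher, and here MAFF was the exception. At each time the genes called were also those whose deprived and control samples did not overlap, 8 at 24 h and 9 at 48 h, where 62.8% and 70.0% of all genes did not overlap and 32.1% and 34.2% did so with the deprived samples higher. The median log2 fold change of all tested genes was -0.01 at 24 h and -0.02 at 48 h. In bulk RNA, a change in the share of cells that express a gene and a change in the RNA per cell cannot be told apart. DESeq2 made the same number of calls among the 10 genes at each time.

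**Figure D1:**
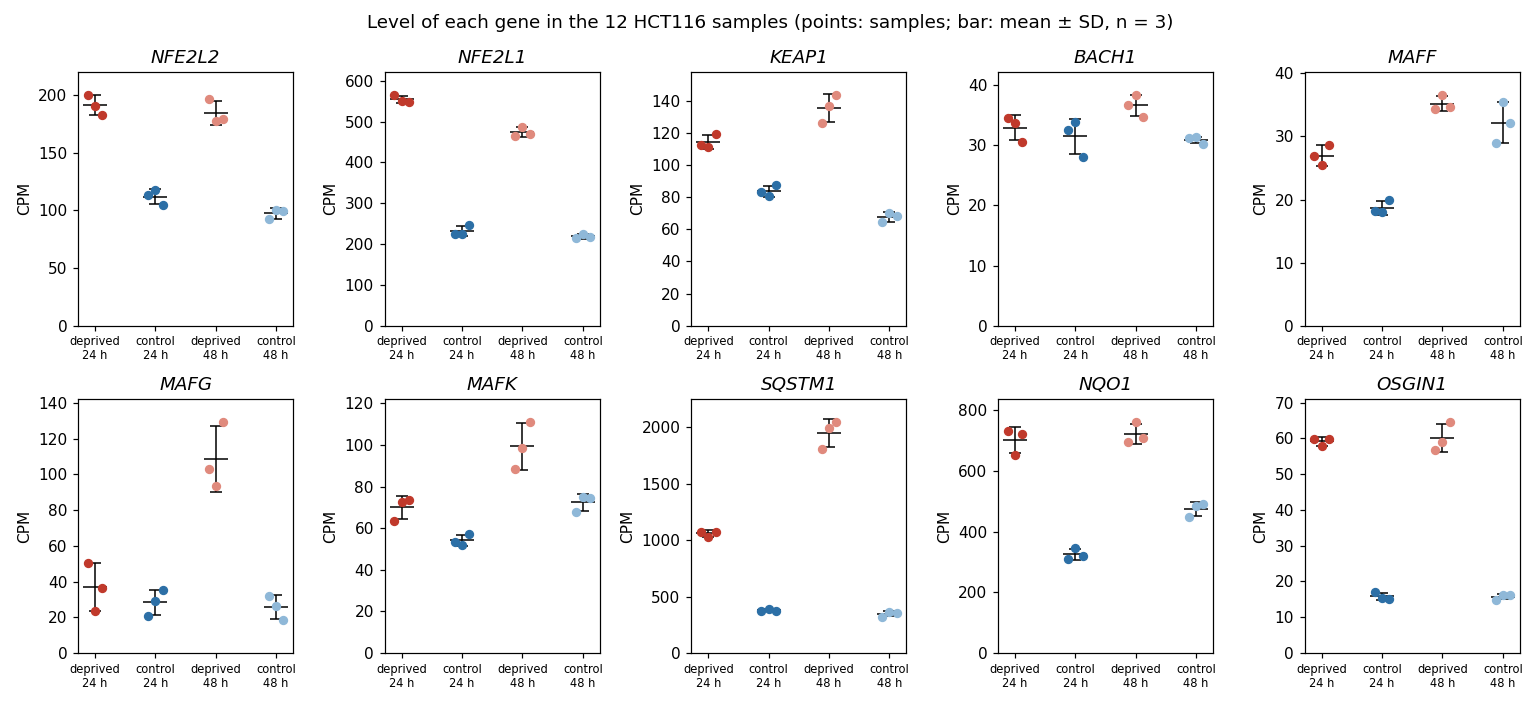
Level of each of the 10 genes in CPM on a linear axis from 0; points are samples, and bars are the mean and SD of 3 samples. SQSTM1 reached 1811 to 2046 CPM in deprived cells at 48 h, against 322 to 367 CPM in control cells, whereas BACH1 stayed between 28.1 and 38.3 CPM in all 12 samples.

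The factors NFE2L2 and NFE2L1 both rose at both times. NFE2L2 (chromosome 2, 177227595 to 177392697, minus strand; gene coordinates here are from GENCODE 29 on GRCh38) had 200.1, 191 and 183 CPM in deprived cells, against 114, 117 and 105 CPM in control cells, at 24 h, and 196, 177 and 179.5 CPM in deprived cells, against 92.2, 101 and 99.3 CPM in control cells, at 48 h. The samples did not overlap at either time, and the deprived samples at 24 h and 48 h covered a like range. Its log2 fold change was 0.77 ± 0.06 (SE) at 24 h (adjusted p = 2.29e-09) and 0.92 ± 0.06 at 48 h (adjusted p = 6.25e-11). The sense-overlapping transcript AC019080.1 shares 17.6% of NFE2L2's exonic bases and averaged 7.56 CPM, so a small part of these counts could belong to either.

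NFE2L1 (chromosome 17, 48048329 to 48061487, plus strand) had 565, 550.3 and 549 CPM in deprived cells, against 224, 225 and 247 CPM in control cells, at 24 h, and 464, 487 and 469 CPM in deprived cells, against 215, 225 and 217 CPM in control cells, at 48 h. Every deprived sample was above every control sample by a wide gap. NFE2L1 rose by 1.26 ± 0.05 on the log2 scale at 24 h (adjusted p = 1.47e-13) and by 1.11 ± 0.05 at 48 h (adjusted p = 2.22e-13); whether that differed from the change of NFE2L2 was not tested. The difference between its effects at 48 h and 24 h, -0.14 ± 0.07, missed the threshold (adjusted p = 0.112), with a 95% interval of -0.28 to -0.01, but passed it without control replicate 3 at 24 h (-0.19, adjusted p = 0.0401). Within deprived cells its level was lower at 48 h than at 24 h by a log2 value of -0.23 ± 0.05 (adjusted p = 0.000753).

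KEAP1 (chromosome 19, 10486120 to 10503741, minus strand) rose with the factor that its protein restrains. It had 112, 111 and 119 CPM in deprived cells, against 83.0, 80.8 and 87.5 CPM in control cells, at 24 h, and 126, 137 and 144 CPM in deprived cells, against 64.3, 70.2 and 68.1 CPM in control cells, at 48 h. The effect was 0.45 ± 0.06 (log2) at 24 h (adjusted p = 2.85e-06) and 1.00 ± 0.06 at 48 h (adjusted p = 1.68e-11), and it differed between the times by 0.56 ± 0.08 (adjusted p = 3.57e-05). Both arms differed over time: KEAP1 was higher at 48 h than at 24 h in deprived cells (0.25 ± 0.06) and lower at 48 h than at 24 h in control cells (-0.31 ± 0.06).

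BACH1 (chromosome 21, 29194071 to 29630751, plus strand), the repressor, changed by less than the other genes at 24 h. It had 34.4, 33.7 and 30.6 CPM in deprived cells, against 32.4, 33.8 and 28.1 CPM in control cells, at 24 h, where the groups overlapped and the log2 fold change was 0.06 (95% interval -0.08 to 0.21, adjusted p = 0.491), a value whose sign changed to -0.01 under upper-quartile or library-total scaling and without control replicate 3. At 48 h it had 36.7, 38.3 and 34.7 CPM in deprived cells, against 31.1, 31.3 and 30.2 CPM in control cells. The groups were then separate, and BACH1 rose by 0.24 ± 0.07 (adjusted p = 0.00616), while the difference between the effects at the 2 times missed the threshold (0.18 ± 0.10, adjusted p = 0.194).

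**Figure D2:**
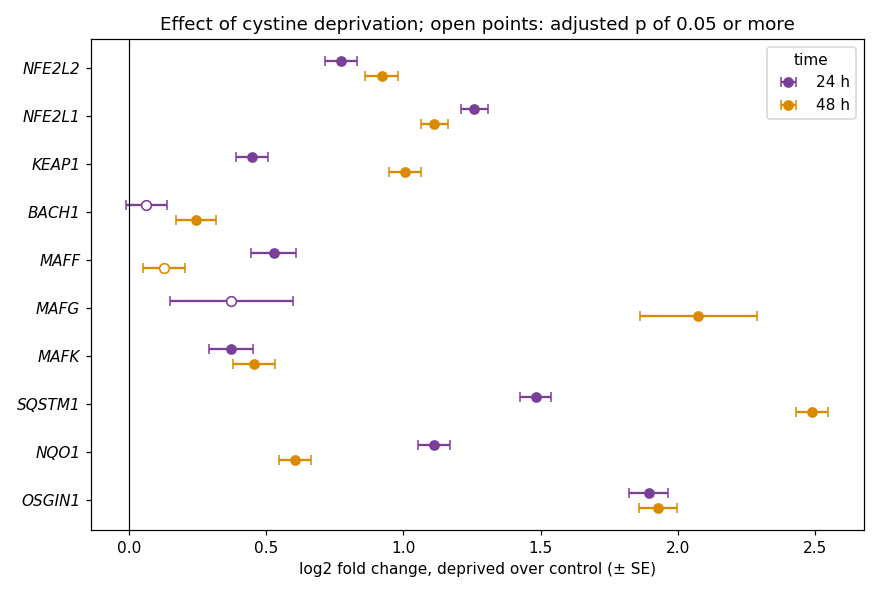
Log2 fold change of deprived over control cells (x axis, ± SE) for each gene at 24 h and 48 h; open points have an adjusted p of 0.05 or more. SQSTM1 is at 1.48 at 24 h and 2.49 at 48 h, MAFG at 0.37 and 2.08, NQO1 at 1.11 and 0.60, and OSGIN1 at 1.89 and 1.93.

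The small MAF genes encode partners with a DNA-binding leucine zipper but no activation domain of their own. They passed the threshold as higher at different times: MAFF at 24 h, MAFG at 48 h and MAFK at both. At 24 h the estimates of MAFG (0.37 ± 0.22) and MAFK (0.37 ± 0.08) were alike, so the missed threshold does not show that MAFG stayed level. MAFF (chromosome 22, 38200767 to 38216511, plus strand) had 26.9, 25.4 and 28.6 CPM in deprived cells, against 18.1, 18.02 and 20.0 CPM in control cells, at 24 h, and 34.3, 36.6 and 34.7 CPM in deprived cells, against 28.9, 35.5 and 32.2 CPM in control cells, at 48 h. It rose at 24 h (0.53 ± 0.08, adjusted p = 2.26e-05), whereas at 48 h the groups overlapped and the difference was 0.13 (95% interval -0.02 to 0.28, adjusted p = 0.143). The effect at 48 h was smaller than at 24 h by a log2 value of -0.40 ± 0.11 (adjusted p = 0.00963). MAFF was higher at 48 h than at 24 h both in deprived cells (0.38 ± 0.08) and, by more, in control cells (0.78 ± 0.08, adjusted p = 1.92e-06). Without control replicate 2 at 48 h, the highest of the control samples, MAFF was called higher at 48 h as well (0.21, adjusted p = 0.0293).

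MAFK (chromosome 7, 1530714 to 1543043, plus strand) had 63.3, 72.8 and 73.7 CPM in deprived cells, against 53.4, 51.9 and 57.02 CPM in control cells, at 24 h, and 88.3, 98.7 and 111 CPM in deprived cells, against 67.6, 75.2 and 74.3 CPM in control cells, at 48 h. The groups were separate at both times, and it rose by 0.37 ± 0.08 (adjusted p = 0.000576) and 0.46 ± 0.08 (adjusted p = 3.16e-05). As with MAFF, its level was higher at 48 h than at 24 h in deprived cells (0.50 ± 0.08) and in control cells (0.42 ± 0.08). TMEM184A on the opposite strand, at 33.6 CPM on average, overlaps 18.15% of the exonic bases of MAFK, and no source used here says whether the libraries kept strand, so reads of the pair cannot be told apart there.

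MAFG (chromosome 17, 81918270 to 81927714, minus strand) had a larger spread between replicates than the other 9 genes, with a standard error of 0.21 to 0.22 for its log2 fold changes, against 0.05 to 0.08 for theirs. It had 50.4, 23.8 and 36.4 CPM in deprived cells, against 20.95, 28.96 and 35.2 CPM in control cells, at 24 h, and 103, 93.4 and 129 CPM in deprived cells, against 32.04, 26.3 and 18.8 CPM in control cells, at 48 h. At 24 h the groups overlapped and the log2 fold change was 0.37 ± 0.22 (95% interval -0.06 to 0.81, adjusted p = 0.167); without deprived replicate 2, the lowest, it was 0.61 (adjusted p = 0.0189). At 48 h all deprived samples were above all control samples, and MAFG rose by 2.08 ± 0.21 (adjusted p = 5.72e-08), a change that exceeded that at 24 h by 1.70 ± 0.31 (adjusted p = 0.000268).

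The MAFG counts have to be read with those of SIRT7, a deacetylase gene next to it on the same strand, which shares 105 exonic bases with MAFG in GENCODE 29, 2.01% of the exonic bases of MAFG. SIRT7 had 155, 195 and 188 CPM in deprived cells, against 96.6, 89.7 and 96.04 CPM in control cells, at 24 h, and 222, 255 and 233 CPM in deprived cells, against 96.5, 109.6 and 109.7 CPM in control cells, at 48 h. On its own SIRT7 rose by 0.93 ± 0.08 at 24 h and by 1.17 ± 0.08 at 48 h (log2). Within groups, the share of the summed counts given to MAFG ranged from 10.9% to 24.5% in deprived and from 17.8% to 26.8% in control cells at 24 h, and from 26.8% to 35.7% in deprived and from 14.6% to 24.9% in control cells at 48 h. The sum was tighter, with 205, 218 and 224 CPM in deprived cells, against 118, 119 and 131 CPM in control cells, at 24 h, and 325, 348 and 362 CPM in deprived cells, against 129, 136 and 129 CPM in control cells, at 48 h. Tested as a single row, a choice made after seeing the data, the sum rose by 0.82 ± 0.06 at 24 h (adjusted p = 7.37e-10) and by 1.40 at 48 h (adjusted p = 8.68e-14). Whether the estimation of counts moved reads between the 2 genes was not tested. MAFG-DT, a divergent transcript that lies outside MAFG, averaged 10.46 CPM in deprived and 4.81 CPM in control cells at 24 h, and 15.9 CPM in deprived and 5.86 CPM in control cells at 48 h. MAFG-DT rose by 1.12 ± 0.12 at 24 h and 1.45 ± 0.11 at 48 h.

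**Figure D3:**
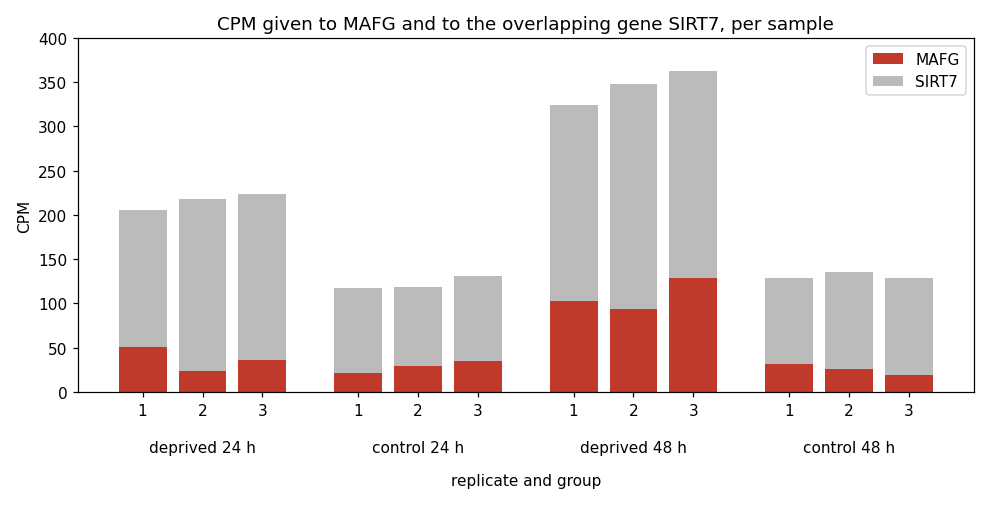
Estimated counts in CPM given to MAFG and to the overlapping gene SIRT7, stacked for each of the 12 samples by group and replicate. The stacked height is steady within a group, at 325 to 362 CPM in deprived and 128 to 136 CPM in control cells at 48 h, while the MAFG part varies.

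SQSTM1 (chromosome 5, 179806398 to 179838078, plus strand), which encodes the autophagy receptor p62 and is itself a known NRF2 target, had the largest rise of the 10 genes at 48 h. Its samples had 1077, 1025 and 1077 CPM in deprived cells, against 376, 388 and 374 CPM in control cells, at 24 h, and 1811, 1995 and 2046 CPM in deprived cells, against 322, 367 and 353 CPM in control cells, at 48 h. Deprived samples were far above control samples at 24 h and higher again at 48 h, while the control samples stayed in a narrow band. SQSTM1 rose 2.79-fold at 24 h (log2 1.48 ± 0.06, adjusted p = 1.08e-13) and 5.62-fold at 48 h (log2 2.49 ± 0.06, adjusted p = 1.99e-17), and 1.2% of all tested genes had a larger rise at 48 h. The effect grew by 1.01 ± 0.08 between the times (adjusted p = 8.57e-09), and the level in deprived cells by 0.88 ± 0.06. MRNIP, on the opposite strand and at 37.9 CPM on average, overlaps 20.7% of the exonic bases of SQSTM1.

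Of the target genes, NQO1 (chromosome 16, 69706996 to 69726951, minus strand) encodes a quinone reductase widely used as a readout of NRF2. It had 732, 654 and 720.3 CPM in deprived cells, against 311, 345 and 319 CPM in control cells, at 24 h, and 697, 761 and 709.5 CPM in deprived cells, against 448, 485 and 493 CPM in control cells, at 48 h. Deprived samples covered a like range at both times, whereas all control samples at 48 h were above all control samples at 24 h. The effect was 1.11 ± 0.06 (adjusted p = 1.15e-11) at 24 h and 0.60 ± 0.06 at 48 h (adjusted p = 1.94e-08), a difference of -0.51 ± 0.08 (adjusted p = 8.09e-05). From 24 h to 48 h NQO1 changed by 0.04 (95% interval -0.07 to 0.15, adjusted p = 0.602) in deprived cells and by 0.55 ± 0.06 in control cells (adjusted p = 2.33e-06).

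OSGIN1 (chromosome 16, 83948282 to 83966332, plus strand), an oxidative stress-induced growth inhibitor gene, had the largest rise of the 10 at 24 h and kept its size. It had 59.8, 57.8 and 59.9 CPM in deprived cells, against 17.1, 15.5 and 15.2 CPM in control cells, at 24 h, and 56.8, 58.9 and 64.5 CPM in deprived cells, against 14.95, 16.2 and 16.2 CPM in control cells, at 48 h. Over both times the deprived samples lay between 56.8 and 64.5 CPM and the control samples between 14.95 and 17.1 CPM. The fold change was 3.72 at 24 h (adjusted p = 7.55e-14) and 3.81 at 48 h (adjusted p = 1.23e-14), and the difference between the effects was 0.04 on the log2 scale (95% interval -0.16 to 0.23, adjusted p = 0.818). The transcript AC009119.2, which overlaps 13.9% of the exonic bases of OSGIN1 on the same strand, was not analysed here.

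Across time, the effect of deprivation differed between 48 h and 24 h for 5 of the 10 genes, where 35.6% of all genes were called. It was larger at 48 h for KEAP1, MAFG and SQSTM1 (16.4% of all genes) and smaller for MAFF and NQO1 (19.2%). In deprived cells 6 of the 10 differed between 48 h and 24 h, where 42.5% of all genes did: KEAP1, MAFF, MAFG, MAFK and SQSTM1 were higher (20.7% of all genes) and NFE2L1 was lower (21.8%). In control cells 5 of the 10 differed, against 23.0% of all genes: MAFF, MAFK and NQO1 were higher at 48 h (12.7% of all genes), and KEAP1 and NFE2L2 were lower (10.4%). These time comparisons share their samples with the comparisons of media. The fall of NFE2L2 in control cells (-0.20 ± 0.06, adjusted p = 0.021) missed the threshold without control replicate 1 or 2 at 24 h or control replicate 1 at 48 h, with adjusted p of 0.0683, 0.102 and 0.0845. Of all genes, 2151 were higher and 1760 lower at 48 h in control cells, whereas with library totals as the only scale the split was 1697 and 2580.

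Levels were compared between the genes as CPM per kilobase, using the gene length in the deposited table. At 24 h the order in deprived cells began with SQSTM1 (373), NQO1 (279), NFE2L1 (115), NFE2L2 (78.1), KEAP1 (43.2) and OSGIN1 (30.8 CPM per kilobase), and ended with MAFG, MAFK, MAFF (10.97) and BACH1 (5.70). In control cells at 24 h SQSTM1 (134) and NQO1 (129 CPM per kilobase) had overlapping ranges, as did NFE2L1 (47.9) and NFE2L2 (45.7), and OSGIN1 (8.27) lay next to MAFF (7.61), also with overlap. In deprived cells at 48 h SQSTM1 stood at 687 CPM per kilobase, 638 in its lowest sample, and NQO1 at 286, while NFE2L2 (75.3), MAFG (62.3) and KEAP1 (51.2) overlapped their neighbours in that order. In control cells at 48 h NQO1 (188) was above SQSTM1 (122 CPM per kilobase), with no overlap. With these lengths BACH1 had the lowest level in all 4 groups, at 5.35 to 6.34 CPM per kilobase. The deposited lengths differ unevenly from the exonic bases in the annotation used for the gene coordinates. MAFF has 2458 bases against 5615, NFE2L2 2446 against 5979, KEAP1 2648 against 3761 and BACH1 5769 against 7717. The order of the genes, the lowest place of BACH1 included, therefore depends on the lengths used. The order by exonic bases is not given here.

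**Figure D4:**
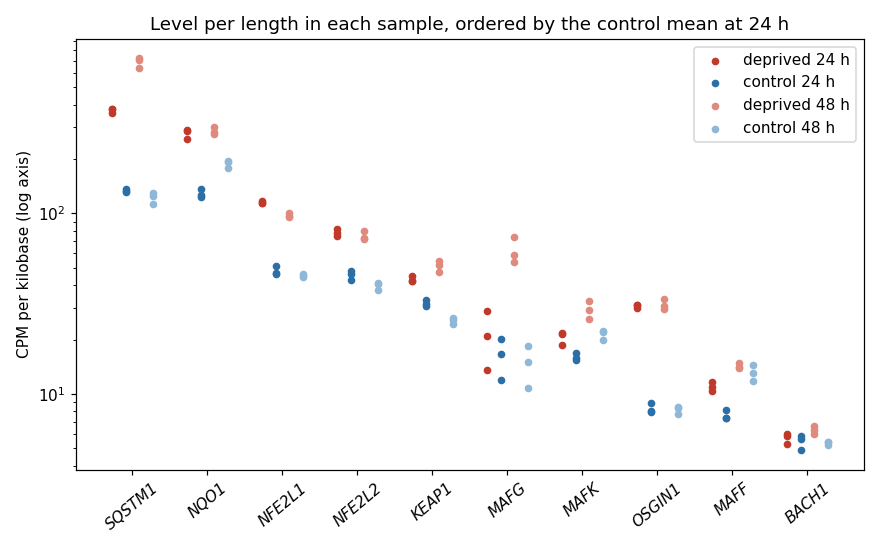
Level of each gene in CPM per kilobase of deposited gene length on a log axis, with a point per sample. Genes are ordered by the control mean at 24 h, an order that depends on the lengths used. The levels span 5.35 (BACH1) to 188 (NQO1) in control cells at 48 h and 6.34 (BACH1) to 687 (SQSTM1) in deprived cells at 48 h, as group means.

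Ratios of these levels within a sample are given without a test, for comparison between deprived and control cells. The size of each ratio depends on the gene lengths used, so it does not give the balance of the regulators itself. BACH1 per NFE2L2 was 0.0709 to 0.0749 in deprived and 0.114 to 0.122 in control cells at 24 h, and 0.0792 to 0.0917 in deprived and 0.129 to 0.143 in control cells at 48 h, with no overlap at either time. KEAP1 per NFE2L2 was 0.518 to 0.603 in deprived and 0.637 to 0.772 in control cells at 24 h, but 0.593 to 0.739 in deprived and 0.634 to 0.644 in control cells at 48 h, where the ranges overlapped. SQSTM1 per KEAP1 was 8.41 to 8.95 in deprived and 3.99 to 4.47 in control cells at 24 h, and 13.3 to 13.6 in deprived and 4.66 to 4.87 in control cells at 48 h. The summed level of MAFF and MAFK per NFE2L2 was 0.363 to 0.448 in deprived and 0.473 to 0.584 in control cells at 24 h, and 0.500 to 0.639 in deprived and 0.843 to 0.891 in control cells at 48 h.

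Genes around this system were read from lists that were chosen with results of these data known, so their counts are descriptions, to be read beside the 28.8% of all genes that were higher and 26.9% that were lower at 24 h, and the 33.5% and 34.9% at 48 h. Of 42 NRF2 targets other than the 10 genes that could be tested (of 49 listed), 21 rose and 10 fell at 24 h, with a median log2 fold change of 0.18 (18 and 12, with a median of 0.11, under upper-quartile scaling), and 26 rose and 9 fell at 48 h, with a median of 0.78. At 48 h the haem oxygenase HMOX1 rose by 5.74 ± 0.09, the ferritin heavy chain FTH1 by 3.04 ± 0.06, the thioredoxin reductase TXNRD1 by 2.43 ± 0.05 and the sulfiredoxin SRXN1 by 2.57 ± 0.06. At the other end GSTA4, a glutathione transferase named here after its values were seen, averaged 0.167 CPM in deprived and 1.58 CPM in control cells at 48 h. Genes at far higher levels fell too, among them TKT and GSTP1, likewise named after their values were seen. TKT averaged 333 CPM in deprived and 729 CPM in control cells at 48 h (log2 -1.13), and GSTP1 173.5 and 284 CPM (log2 -0.71). Of 13 genes known to be repressed by BACH1, 10 of which are also in the NRF2 list (76.9% of the BACH1 list and 20.4% of the NRF2 list), 11 rose and 1 fell at both times, with medians of 1.24 and 1.95. GCLM, the modifier subunit of glutamate-cysteine ligase, rose by 1.99 ± 0.07 and 2.77 ± 0.07. The gene that fell, SLC40A1 (the iron exporter ferroportin, named after its values were seen), averaged 0.149 CPM in deprived and 1.37 CPM in control cells at 48 h. FTH1 has processed pseudogenes, so its estimated counts are uncertain.

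Proteasome subunit genes, the best known targets of NRF1, differed between the times. At 24 h 10 of 33 rose and 19 fell (median -0.16), whereas at 48 h 29 rose and 2 fell (median 0.47), and the effect was larger at 48 h for 32 of the 33, against 16.4% of all genes. PSMC4, an ATPase of the base, averaged 91.2 CPM in deprived and 75.6 CPM in control cells at 24 h, and 127 CPM in deprived and 56.4 CPM in control cells at 48 h. It rose by 0.27 ± 0.06 at 24 h and 1.17 ± 0.06 at 48 h, and the lid subunits PSMD12, PSMD7 and PSMD11 rose by 1.07 ± 0.05, 0.94 ± 0.06 and 0.85 ± 0.05 at 48 h. PSMA2 and PSMA4 of the core were the pair that fell at 48 h, by 0.26 and 0.23 on the log2 scale (named after their values were seen). Both arms moved over time: 30 of the 33 were lower at 48 h than at 24 h in control cells, and 24 were higher at 48 h in deprived cells, where 10.4% of all genes were called lower in control cells and 20.7% higher in deprived cells. NFE2L1 itself, by contrast, had effects of 1.26 and 1.11 at the 2 times.

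**Figure D5:**
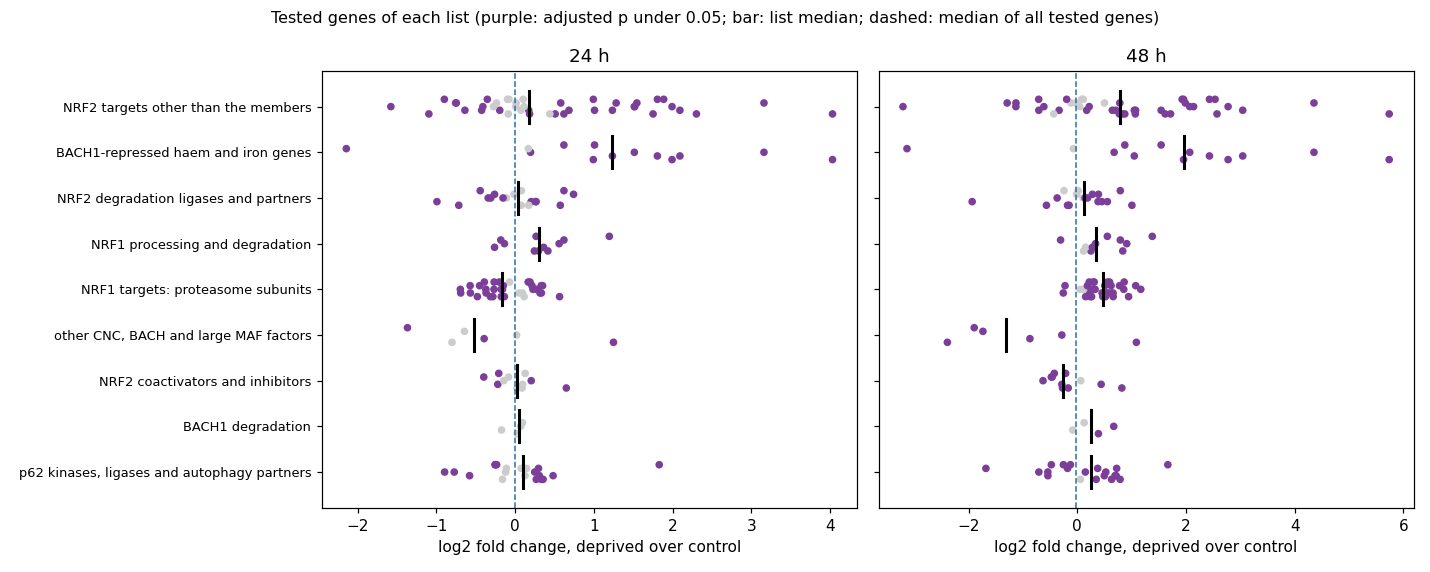
Log2 fold change of deprived over control cells for each tested gene of 9 lists at 24 h (left) and 48 h (right); purple points passed an adjusted p of 0.05, short bars are list medians and the dashed line is the median of all tested genes. The median of the proteasome list is -0.16 at 24 h and 0.47 at 48 h, and that of the BACH1-repressed list is 1.24 and 1.95.

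Of 11 genes linked to the processing or the degradation of NRF1, 8 rose and 3 fell at 24 h (median 0.30). At 48 h 8 rose and 1 fell (median 0.33). SEL1L, a partner of the endoplasmic reticulum ligase SYVN1, rose by 1.20 ± 0.05 and 1.38 ± 0.05, and SYVN1 rose by 0.62 ± 0.08 and 0.79 ± 0.08. OGT, which adds N-acetylglucosamine to proteins, and the ubiquitin-conjugating enzyme UBE2A rose by 0.91 ± 0.07 and 0.84 ± 0.07 at 48 h. The gene that fell at 48 h, HCFC1, named after its values were seen, did so by 0.31 on the log2 scale. Among 18 ligases and partners linked to NRF2 degradation, 6 rose and 7 fell at 24 h and 9 rose and 5 fell at 48 h. The list was not split by whether a gene promotes or opposes that degradation. The median at 24 h, 0.03, turned to -0.04 under upper-quartile scaling, which gave 4 higher and 8 lower at 24 h and 7 higher and 6 lower at 48 h. PTMA, a nuclear protein that binds KEAP1, had the lowest fold changes of that list, at -0.99 ± 0.05 and -1.94 ± 0.05, with 722 CPM in deprived and 2761 CPM in control cells at 48 h, and it too has processed pseudogenes. PGAM5, a mitochondrial phosphatase that binds KEAP1, rose by 0.57 ± 0.07 and 1.00 ± 0.07, and SKP1, a subunit of SCF ligases, fell by 0.72 ± 0.05 and 0.57 ± 0.05.

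Of 6 other CNC and large MAF factors that could be tested (of 7 listed), 1 rose and 2 fell at 24 h, and 1 rose and 5 fell at 48 h. NFE2L3, a CNC factor, fell by 0.39 ± 0.06 at 24 h and 0.87 ± 0.06 at 48 h. MAFA and NFE2 fell at 48 h by 1.74 ± 0.29 and 2.39 ± 0.49, and no sample had more than 1.78 CPM of NFE2. NRL, which rose (named after its values were seen), averaged 0.954 CPM in deprived and 0.444 CPM in control cells at 48 h. Coactivators and inhibitors of NRF2 rose in 2 and fell in 3 of 11 tested (of 13 listed) at 24 h, and rose in 2 and fell in 8 at 48 h (median -0.27). The median at 24 h, 0.02, turned to -0.05 under upper-quartile scaling, with 2 genes higher and 4 lower, and 2 and 5 with library totals as the scale. The acetyltransferase genes CREBBP and EP300 were the pair that rose at 48 h, by 0.82 ± 0.07 and 0.44 ± 0.07, while the retinoic acid receptor RARA and the helicase CHD6 fell by 0.63 ± 0.09 and 0.46 ± 0.07.

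Of 4 genes linked to BACH1 degradation, none passed the threshold at 24 h, with log2 fold changes from -0.17 to 0.09 (median 0.05). Under upper-quartile or library-total scaling 1 of the 4 was called lower at 24 h, with a median of -0.02 or -0.03. At 48 h HMOX2, the constitutive haem oxygenase, rose by 0.67 ± 0.08 and the F-box gene FBXO22 by 0.39 ± 0.07, while USP47 (0.13 ± 0.07) and FBXL17 (-0.08 ± 0.09) did not pass. Partners of p62 in autophagy and signalling rose in 8 and fell in 6 of 20 tested (of 21 listed) at 24 h, a split of 8 and 9 under upper-quartile scaling, and rose in 11 and fell in 8 at 48 h. MAP1LC3B, which encodes a protein of the autophagosome membrane that p62 binds, rose by 1.83 ± 0.06 and 1.66 ± 0.05. The receptors CALCOCO2 and NBR1 rose by 0.79 ± 0.05 and 0.72 ± 0.05 at 48 h, and the ubiquitin ligase gene RNF26 fell by 1.68 ± 0.08 at 48 h, against a difference of -0.11 ± 0.07 at 24 h.

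Profiles over the 12 samples were compared by the root mean square difference of centred log2 CPM among 11264 genes, as a description. Nearest to NFE2L2 were MTIF2 (0.07), MAPK6 and PAK1IP1, and nearest to NFE2L1 were HSPA9 (0.08), SLC35F6 and SYTL3. KEAP1 was nearest to TADA2B (0.05) and TMEM216. BACH1 was nearest to GNAI3 (0.06), CNBP and PAPOLG, MAFF to CBARP (0.09), IER2 and DUSP4, and MAFK to FXYD5 (0.06), GPRC5A and PLD3. The profile of SQSTM1 lay nearest to CFAP92 (0.08), RHOB and PVR, that of NQO1 to TMEM200A (0.10), ITGA3 and SLC25A25, and that of OSGIN1 to AARS1 (0.09), GAS5 and HYOU1. MAFG had no close neighbour, the nearest being POPDC3 at 0.33, GLIS3 and SMARCA2. None of the 10 genes was among the 3 nearest of another.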

How the data were processed

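The deposited table was read as holding estimated counts per gene without normalization by the authors. The unit was inferred from the values: the sample descriptions name a TPM file, whereas column totals here ran from 19146108 to 24179533. The 12 samples took their group and number from their titles; the gene length column of the same deposited table served for CPM per kilobase. Per the submitters' processing notes, the tools were fastp, HISAT and RSEM, on GRCh38; versions, strandedness and annotation release are not given in the sources used here. RNA was extracted with TRIzol and treated with DNase, per the labels' protocols. Of the table's values, 85.8% were whole within a tolerance of 1e-09, and all were rounded to whole numbers. The 316 rows without a gene name held 0.748% to 1.65% of counts and were left out.

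Genes passing filterByExpr (minimum count 10, minimum total 15) entered 1 fit of 4 group means with TMM scaling in edgeR 4.0.16 (quasi-likelihood test, R 4.3.3), and p-values were adjusted by Benjamini-Hochberg over all 16994 genes with a threshold of 0.05. A standard error was taken as the size of the log2 fold change over the square root of F. CPM use TMM-scaled library sizes. The biological coefficient of variation was 6.4%, and replicates differed beyond sampling noise (chi-square per degree of freedom 4.14 to 6.44).

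The 10 genes, the lists and the tests were chosen with earlier results of these data known. The named genes are the 10, the 4 genes of each list with the smallest adjusted p at 48 h, and for each of the 10 the 3 genes nearest in profile (prior count 2, mean of at least 5 CPM); a few of these are not reported here. The fit was also run on simulated counts in which only a small part of the genes was changed. Far more genes were called in these data, so that run cannot check the scaling under so broad a change. Alternatives were RLE, upper-quartile and library-total scaling, DESeq2 1.42.0, filters on low counts (none, or a mean of at least 5 CPM), a replicate block, the compared groups alone, and each sample left out; summing MAFG and SIRT7 was added after seeing the data.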

Additional observations from a re-analysis of the deposited data

Results flagged for a closer look

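The effect of cystine deprivation differed between 48 h and 24 h, by edgeR's quasi-likelihood test of the difference itself, for 5 of the 10 genes, where 35.6% of all tested genes were called. The difference, on the log2 scale, was 0.5569 for KEAP1 (adjusted p = 3.57e-05), 1.702 for MAFG (adjusted p = 0.000268) and 1.009 for SQSTM1 (adjusted p = 8.57e-09), each with a larger rise at 48 h. It was -0.3984 for MAFF (adjusted p = 0.00963) and -0.507 for NQO1 (adjusted p = 8.09e-05), each with a smaller rise at 48 h. With MAFG and SIRT7 counts summed, a choice made after seeing the data, the difference for the sum was 0.58 (adjusted p = 1.63e-05).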

How the results depend on the processing

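Over 50 results of the 10 genes, 1040 alternative values were computed: 1015 kept their direction and their side of the threshold, 8 passed it newly, 3 no longer did and 14 changed sign, none of these being called in either fit. BACH1 at 24 h was -0.0072 under upper-quartile scaling, -0.011 under library totals and -0.0096 to 0.118 with each sample left out. Leaving out each sample gave -0.0011 to 0.164 for the difference of MAFK and -0.0175 to 0.0771 for that of OSGIN1. Over time in control cells it gave -0.103 to 0.0251 for BACH1, -0.328 to 0.0485 for MAFG and -0.0476 to 0.0396 for OSGIN1, and in deprived cells -0.0065 to 0.073 for NQO1 and -0.0316 to 0.0624 for OSGIN1. The sum of MAFG and SIRT7 over time in control cells was 0.10. MAFG at 24 h passed with no filter on low counts (0.37 ± 0.08, adjusted p = 6.6e-06). The main fit gave a like estimate with a larger standard error (0.37 ± 0.22), and the samples overlapped. The call therefore came from a smaller standard error and not from a larger difference. The sum with SIRT7 also passed at 24 h, but SIRT7 held most of it, so it does not speak of MAFG alone. The smaller effect of NFE2L1 at 48 h passed under the stricter filter (-0.16, adjusted p = 0.0496). Library totals as the scale brought in falls over time in control cells of NFE2L1 (-0.13, adjusted p = 0.0286) and SQSTM1 (-0.18, adjusted p = 0.00689). The causes were not tested. The other changes, each from leaving out 1 sample, are given with the results of NFE2L1, MAFG, MAFF and NFE2L2. Counts of all genes called stayed within 1.5 times: leaving out each sample gave 8587 to 9709 at 24 h, 11113 to 11691 at 48 h, 5352 to 6032 for the difference, 2914 to 4356 over time in control cells and 6240 to 7357 in deprived cells. Counts among the 10 genes were then 8 to 9, 9 to 10, 5 to 6, 4 to 5, and 6.

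Deviations of same-numbered samples had small correlations, from -0.0412 to 0.126. Of 18 such pairs 1 had a correlation over 0.1, and 6 of 12 samples correlated best with their own number. These values do not settle whether the numbers mark pairs. The replicate number as a block gave 9631 genes at 24 h, 11734 at 48 h and 6329 for the difference. Over time it gave 4306 in control cells and 7473 in deprived cells. Each count was above that of the main fit, and no call among the 10 genes changed. A fit of the compared groups alone was not run for the difference, which needs all 4 groups.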
